A study of Sus scrofa with 180 samples.

Results

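ADAMTS8 was the named gene with the widest difference between 2 muscles of the pig, Longissimus (LM) and Semimembranosus (SM), and was chosen by that difference of mean levels. It was measured by 1 probe, BX916975.1_1142, out of the 15198 gene probes of the array. The probe was found by its gene symbol and was 1 of 10987 kept after filtering, of which 3967 carried a symbol, for 3481 genes. Both muscles were sampled from 90 pigs and each sample was hybridized alone to an Agilent array with 1 dye, so that each group held 90 arrays. LM is a muscle of the back and SM a muscle of the ham, and the pigs were untreated commercial animals of an intercross between a Pietrain-type line and a synthetic line. All were wild type at the HAL and RN loci and came from 2 half-sib families, which the labels do not identify, so the pigs were separate animals but not unrelated ones. The labels give neither age nor sex by animal, and biopsies were taken from the superficial part of each muscle after slaughter.

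ADAMTS8 belongs to a family of secreted zinc proteases that carry thrombospondin motifs and act in the extracellular matrix. The family includes enzymes that cleave matrix proteoglycans, and its members are made with a pro-domain that convertases of the furin type can remove. ADAMTS8 itself is known as an inhibitor of blood vessel growth, and its annotation includes negative regulation of cell proliferation. Each muscle sample was a mixture of fibres, vessels, connective tissue and fat, so a lower level from fewer expressing cells and one from less RNA per cell cannot be told apart.

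The sequence of the probe, printed because every value of the gene rests on it, is given 5′ to 3′ with its first 15 bases in capitals, the window in which C was counted for the check of C-rich probes described with the slides.
ADAMTS8 probe: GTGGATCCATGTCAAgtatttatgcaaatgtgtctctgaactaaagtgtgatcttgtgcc
It is 60 bases long, holds 3 C in its first 15 bases against a median of 3 over all gene probes, and has a GC content of 40.0% against a median of 45.0%. The longest run it shared with any of the other 15197 gene probes, on either strand, was 13 bases. The part of the gene that the probe covers (exon or UTR) was not analysed here. In the pig assembly Sscrofa11.1 the protein-coding gene next to ADAMTS8 on one side is ADAMTS15, another member of the family, which had no named probe in the tables used here.

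All 180 arrays resembled the muscle of their label. Over the 200 probes with the largest difference between the muscles, ADAMTS8 left out, the profile of each LM array correlated with the LM minus SM difference at 0.47 or more and that of each SM array at -0.42 or less, as a description with no test. The share of gene probes well above background ran from 69.2% to 99.9% in LM and from 63.4% to 83.3% in SM. The slow fibre troponin TNNI1, a marker of skeletal muscle, was far above the array median in both muscles, at a log2 level of 5.56 ± 0.33 over 90 LM arrays and 5.88 ± 0.36 over 88 SM arrays (mean ± SD). The LM array of replicate 87, on which several results below rest, had a correlation of 0.66 with the muscle difference and 77.7% of its probes well above background, both inside the range of the other LM arrays.

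ADAMTS8 was high in LM and near the middle of the array in SM. Levels are log2 processed signals minus the median of the array, so 0 is the level of the median probe. In LM the lowest level was -3.10, the median 3.75 and the highest 6.51, with a mean of 3.72 ± 1.69 (SD, n = 90). In SM the lowest level was -3.02, the median -0.21 and the highest 4.25, with a mean of -0.039 ± 1.40 (SD, n = 89). One SM spot, of replicate 77, was not well above background and was set to missing. On the linear scale the processed signal, in the arbitrary units of the scanner, ran from 76.4 to 53273 in LM, with a median of 7410, and from 41.9 to 8861 in SM, with a median of 362. The LM mean lay above that of 88.2% of the probes kept, and the SM mean above that of 49.6%.

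The difference of the means, LM minus SM, was 3.76 on the log2 scale (SE 0.23), a ratio of 13.5. This difference chose the gene, was the largest of all 10987 probes and is therefore a description with no test. The SEs in this paragraph come from a fit without a pig term, which ignores that both muscles came from the same pigs. The muscles were on separate slides, so in these arrays a difference between muscles and one between slides cannot be told apart. The next named gene was RYR1, the calcium release channel of the sarcoplasmic reticulum, with 3.54 (SE 0.069). RYR1 varied far less within each muscle, with an SD of 0.40 over 90 LM arrays and 0.49 over 72 SM arrays. In SPI1, a transcription factor of myeloid cells, the SM level was the higher by a log2 difference of -3.02 (LM minus SM, SE 0.16, 49 LM and 85 SM arrays). REV3L, a subunit of a DNA polymerase, differed by 2.92 (SE 0.077, 90 LM and 78 SM arrays). Failed and outlying spots were left out, so the values of these 3 genes cover only the arrays with a usable spot.

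The groups overlapped in spite of the size of the difference. All 89 measured SM arrays lay above the lowest LM array, and 53 of the 90 LM arrays lay at or below the highest SM array. Within pigs the difference had a mean of 3.76 ± 2.37 (SD, n = 89) and ran from -5.01 to 7.58. LM was higher in 80 pigs and SM in 9, and 47 pigs had a difference over 4. The 3 lowest LM levels were -3.10 in replicate 87, -1.39 in replicate 85 and -0.058 in replicate 69. The SM levels of the same pigs were 1.90, -1.60 and 1.94, so SM was higher in 2 of these 3. The highest SM level, 4.25, was that of replicate 53, whose LM level was 3.14.

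**Figure D1:**
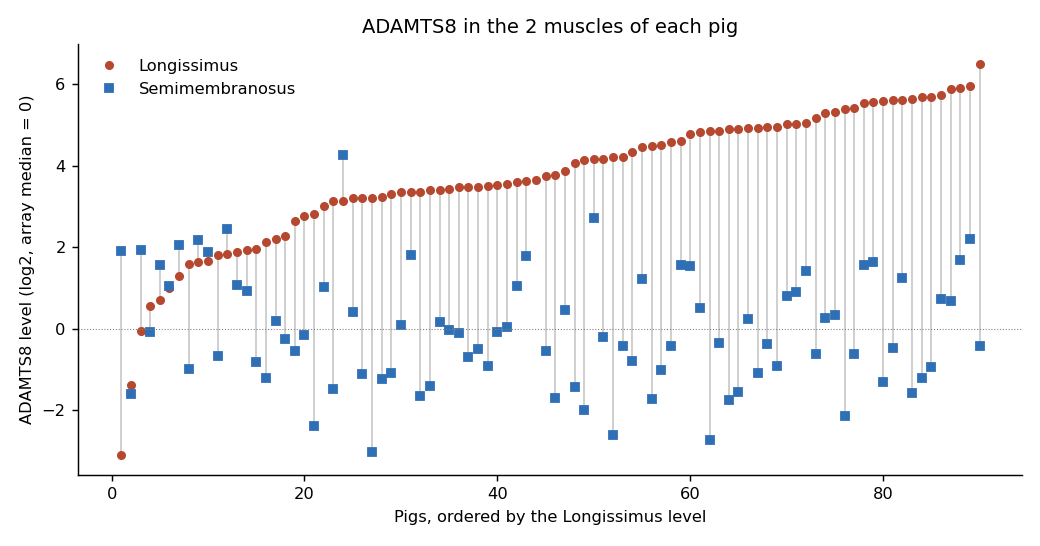
ADAMTS8 level in LM (circles) and SM (squares) of each pig on the log2 scale with the array median at 0, the pigs being ordered from left to right by their LM level and a grey line joining the 2 muscles of a pig. The LM level climbed from -3.10 to 6.51 while the SM squares stayed scattered between -3.02 and 4.25, and SM lay above LM in 9 of 89 pigs.

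ADAMTS8 was among the most variable probes in both muscles. Its SD ranked 6 of 10987 in LM and 7 in SM, while the median probe had an SD of 0.28 in LM and 0.29 in SM. The highest and lowest LM arrays differed by a factor of 782, and the SM arrays by a factor of 155. The middle of the distribution was wide as well, since the upper and lower quartiles differed by a factor of 3.52 in LM and 4.34 in SM. By the interquartile range the probe ranked 27 in LM and 13 in SM, so its rank in LM was lower by a measure that gives no weight to the extreme arrays. Among named probes, THBS2, a thrombospondin of the extracellular matrix, had a larger SD, with 1.96 in LM and 1.75 in SM (n = 90 each). The developmental myosin heavy chains MYH3 and MYH8 were close in SM, with 1.39 and 1.41 (n = 90 each), beside 1.40 for ADAMTS8.

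In LM the slide means of ADAMTS8 ran from 1.81 to 5.30, without passing the test. Each slide held arrays of 1 muscle, so slides were compared within a muscle. For the same reason, differences between the muscles in level or slope cannot be told apart from differences between their slides. Across the 18 LM slides with 3 or more arrays (85 arrays), slides accounted for 31.1% of the variance of ADAMTS8, and the limma F test did not pass after adjustment over all probes (p = 0.035, adjusted p = 0.062), where 53.6% of the probes tested passed. The lowest slide means were 1.81 ± 2.18 (SD, n = 4) for slide 50 and 1.87 ± 0.87 (SD, n = 4) for slide 49. The highest were 5.30 ± 1.03 (SD, n = 4) for slide 26 and 5.22 ± 0.50 (SD, n = 4) for slide 25. Arrays of slides 49 and 26 did not overlap, while slide 31 alone spanned -3.10 to 4.96. Slides 49 and 50 were among those scanned on day 9 of the 10 LM scan days, when the mean was 2.31 ± 1.61 (SD, n = 13), and the mean of day 3 was 4.83 ± 1.32 (SD, n = 12). Scan days, a grouping chosen after the data were examined, accounted for 23.4% of the variance in LM and passed (adjusted p = 0.014, limma), as 56.7% of the probes did. The 2 versions of the extraction software in LM gave 3.50 ± 1.83 (SD, n = 44) and 3.92 ± 1.54 (SD, n = 46) and did not pass (adjusted p = 0.46, limma, with 12.1% of the probes passing).

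In SM the slides accounted for 3.93% of the variance across 13 slides (87 arrays, adjusted p = 0.99, limma), where 15.0% of the probes tested passed. Slide means in SM ran from -0.76 to 0.72, and the range of every slide included the stretch from -0.95 to 0.23. SM scan days accounted for 2.72% (adjusted p = 0.73, limma, with 28.2% of the probes passing). Animals of a slide could also share a family or slaughter batch, which the labels do not give, so slide and animal group cannot be told apart.

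**Figure D2:**
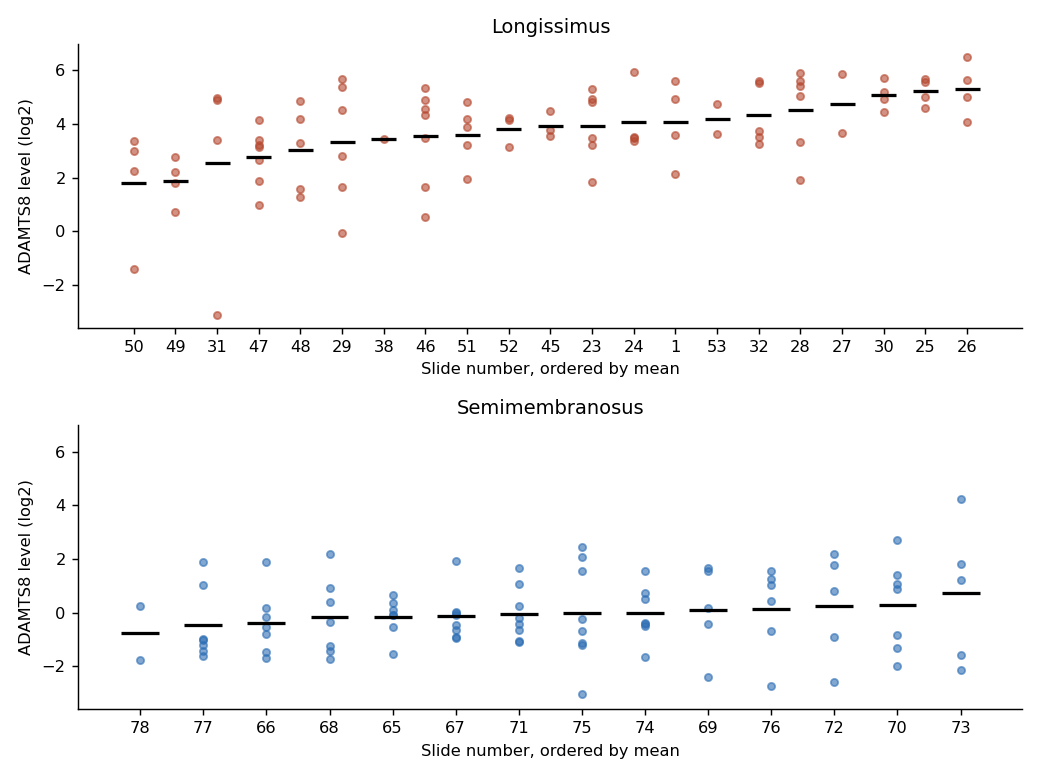
ADAMTS8 level (log2, array median at 0) of each array by slide, with LM above and SM below, slides ordered by their mean (black bars) and 1 point for each array. LM slide means ran from 1.81 to 5.30 and SM slide means from -0.76 to 0.72, with wide scatter inside most slides.

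The level was set against 3 properties of the arrays in each muscle, which made 6 relations. The clearest was with the median processed signal of the LM array (Pearson r = 0.24, permutation p = 0.025, adjusted p = 0.15 over the 6; Spearman rho = 0.34, permutation p = 0.0014; n = 90). Without the 2 arrays farthest from the median of that signal r was 0.20, and within slides it was -0.010. The share of probes well above background had an r of 0.037 in LM and 0.11 in SM. An index of C-rich probes had an r of -0.16 in LM and 0.11 in SM. It subtracts the mean deviation of C-poor probes (at most 2 C among the leading 15 bases) from that of C-rich probes (at least 8). The adjusted permutation p of the 5 other relations lay between 0.36 and 0.73.

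The ADAMTS8 levels of the 2 muscles of a pig gave a correlation below 0 that did not pass the permutation test. Over 89 pigs Pearson r was -0.16 (95% confidence interval -0.35 to 0.053, two-sided permutation p = 0.14) and Spearman rho was -0.092 (permutation p = 0.39). Without the 2 pigs farthest from the LM median, replicates 87 and 85, r was -0.16 (permutation p = 0.14), and without replicate 87 alone it was -0.10 (permutation p = 0.33). With the level of each array taken from the mean of its slide, r was -0.27 (permutation p = 0.010) and rho -0.19 (permutation p = 0.081). Over the 12 settings in which this relation was computed the adjusted p of that r was 0.12. Those settings repeat 1 relation on the same pigs, so they are not 12 separate hypotheses. The permutations also took no account of the slide means removed from the values. Without the 2 pigs farthest from the LM median of the slide-centred values, picked anew, that r was -0.18 (permutation p = 0.093). Within single LM scan days with 6 or more pigs, r was below 0 in 5 of 6 days and ran from -0.54 to 0.080. Within the 5 SM scan days it was below 0 in 4 and ran from -0.60 to 0.26.

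Most probes had a weak positive relation between the muscles of a pig. Over the 10391 probes with 60 or more pigs measured in both, the median r was 0.068, 71.4% lay above 0, and 3.50% lay below that of ADAMTS8. Of 8 other highly variable genes, 4 had an r of 0.20 to 0.29, namely MYH8 (0.29), OAS1 (0.25), THBS2 (0.24) and MYH3 (0.20, n = 90 for each). The r was 0.074 for SLPI (n = 90) and 0.0014 for HSPA4 (n = 87), and below 0 for ATF3, an immediate early transcription factor (-0.096, n = 89), and SPP1 (-0.11, n = 50). These are descriptions with no test, and the probes share the same 180 arrays.

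**Figure D3:**
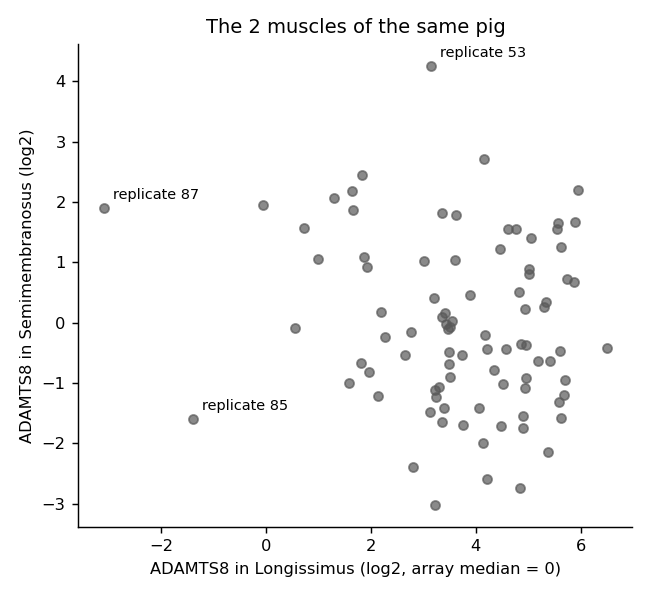
ADAMTS8 level of SM against that of LM for the 89 pigs measured in both muscles (log2, array median at 0), 1 point for each pig. The points form 1 broad cloud with r of -0.16, and replicates 87, 85 and 53 lie at its edges.

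To find the genes that followed ADAMTS8 within a muscle, each other probe was fitted on the ADAMTS8 level with the slide as a fixed term, and the partial correlation r measures their likeness within slides. The slope is the log2 change of a gene for each log2 unit of ADAMTS8. In LM, 250 of 10986 probes passed at an adjusted p of 0.05 (2.28%), of which 123 rose with ADAMTS8 (1.12%) and 127 fell (1.16%). Among them 94 had a gene name, 48 rising and 46 falling, for 85 genes. In SM 0 probes passed (0%), with a lowest adjusted p of 0.076, and ordinary least squares also called 0. The share with an unadjusted p under 0.05 was alike, with 1875 probes in LM (17.1%) and 1798 in SM (16.4%, limma). The 250 calls in LM depended on replicate 87, the array with the lowest level. Without it 71 probes passed (0.646%), 38 rising and 33 falling, and 50 of them were among the 250. The LM probes with an unadjusted p under 0.05 then numbered 1534. Leaving out any other LM array in turn left between 184 and 374. In the table of natural log values that the authors deposited, which holds fewer probes, 11 passed, and of the named LM genes described next only XIRP2, UACA and FCF1 did.

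Among named genes, the muscle protein XIRP2, which binds actin at the ends and junctions of muscle fibres, had the highest partial r with ADAMTS8 in LM. Its level ran from 6.74 through a median of 7.70 to 8.22 in LM (n = 90) and from 5.23 through 6.67 to 8.05 in SM (n = 89), so the ranges overlapped widely. Its slope on ADAMTS8 in LM was 0.10 (SE 0.019, partial r = 0.55, adjusted p = 0.0011, limma). With no slide term, Pearson r over the 90 LM arrays was 0.35 and Spearman rho 0.27. Without replicate 87 the partial r was 0.51 (adjusted p = 0.013, limma). In SM the partial r was -0.11 (adjusted p = 0.63, limma).

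A further 7 named genes with the highest partial r in LM also rose with ADAMTS8. They were UACA, a protein with ankyrin repeats and a coiled coil (0.55), the palmitoyltransferase ZDHHC20 (0.54), FCF1, a factor of ribosomal RNA processing (0.54), and the nuclear import receptor KPNA5 (0.54). The others were NARS2, the asparaginyl-tRNA synthetase of mitochondria (0.51), the mineralocorticoid receptor NR3C2 (0.49) and KTN1, which binds kinesin (0.49). Their adjusted p lay between 0.0011 and 0.0062 (limma). With no slide term they were less alike over the 90 LM arrays. FCF1 had a Pearson r of 0.61 and a Spearman rho of 0.60, while KPNA5 had 0.20 and -0.035. Without replicate 87, UACA, ZDHHC20, FCF1 and NR3C2 still passed, while KPNA5 (adjusted p = 0.057), NARS2 (0.059) and KTN1 (0.058) did not. The probe named FCF1 and another called probe named SKIL (partial r = 0.49) were designed on the same contig, so the gene name of that signal is uncertain.

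With all arrays, the named gene of lowest partial r in LM was AKR1CL1, a member of the aldo-keto reductase family. Its LM level ran from 0.11 through a median of 1.27 to 3.67 (n = 90), and its SM level from 1.01 through 2.28 to 3.43 (n = 90), so SM was the higher in the median and the ranges overlapped. Its slope in LM was -0.19 (SE 0.031, partial r = -0.60, adjusted p = 0.00022, limma), and without replicate 87 the partial r was -0.46 (adjusted p = 0.018, limma). It was then no longer the lowest, since MRPS18A had -0.49 and ACADS -0.47 without that array. With no slide term, Spearman rho of AKR1CL1 over the 90 LM arrays was -0.26. MRPS18A, a protein of the mitochondrial ribosome, had a partial r of -0.57, POPDC2, a membrane protein of striated muscle that binds cyclic AMP, -0.51, and ACADS, the short-chain acyl-CoA dehydrogenase, -0.50. These 3 fell at an adjusted p between 0.0011 and 0.0098 and passed without replicate 87 too (limma).

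**Figure D4:**
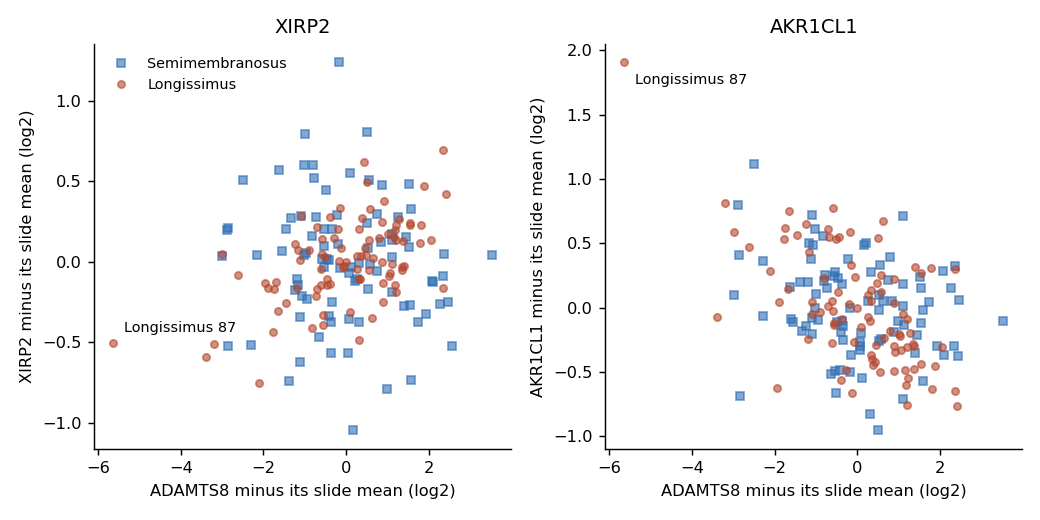
Levels of XIRP2 (left) and AKR1CL1 (right) against ADAMTS8 on the log2 scale, each as the deviation from the mean of the slide, with 1 point for each array of LM (circles) and SM (squares). The LM points slope upward for XIRP2 (partial r 0.55) and downward for AKR1CL1 (partial r -0.60), and the LM array of replicate 87 lies farthest to the left in both plots.

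In SM the named genes with the highest partial r did not pass. RNF144B, a ubiquitin ligase, had 0.46 (adjusted p = 0.076), PPP1R12B, a regulatory subunit of myosin phosphatase, 0.43 (adjusted p = 0.095), and PPARD, a nuclear receptor of fatty acid catabolism, 0.42 (adjusted p = 0.079, limma for all). RUSC2, the mesenchymal transcription factor PRRX1, the ubiquitin ligase SIAH1, SEC24C of the COPII coat and PES1 of ribosome biogenesis lay between 0.39 and 0.41. The lowest were GTF2H5, a subunit of the transcription factor TFIIH (-0.40), SCFD1 of vesicle transport (-0.40), the centriolar satellite protein PCM1 (-0.39) and MRPS36 (-0.39). The LM partial r of these 12 genes ran from -0.39 to 0.23, and none passed in LM. Without LM replicate 87 it ran from -0.20 for GTF2H5 to 0.33 for RNF144B, and none passed. The LM value of SEC24C, -0.39 with all arrays, was then -0.16, and that of SIAH1 went from 0.076 to 0.33.

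Among the named genes whose lower partial r of the 2 muscles was highest were ENTPD6, a nucleoside diphosphatase (partial r 0.44 in LM and 0.36 in SM), KCNJ11, the pore subunit of the ATP-sensitive potassium channel (0.40 and 0.34), NARS2 (0.51 and 0.33) and ZMYND17 (0.33 and 0.36). In LM the first 3 rose with ADAMTS8 (adjusted p from 0.0032 to 0.037, limma) and ZMYND17 did not pass (adjusted p = 0.10). Without replicate 87 none of these 4 passed. In SM their adjusted p ran from 0.10 to 0.13. Across 10571 probes measured on 60 or more arrays in each muscle, the partial r of LM and that of SM correlated at 0.068, and 51.9% had the same sign. These are descriptions across probes, which share the arrays of each muscle.

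**Figure D5:**
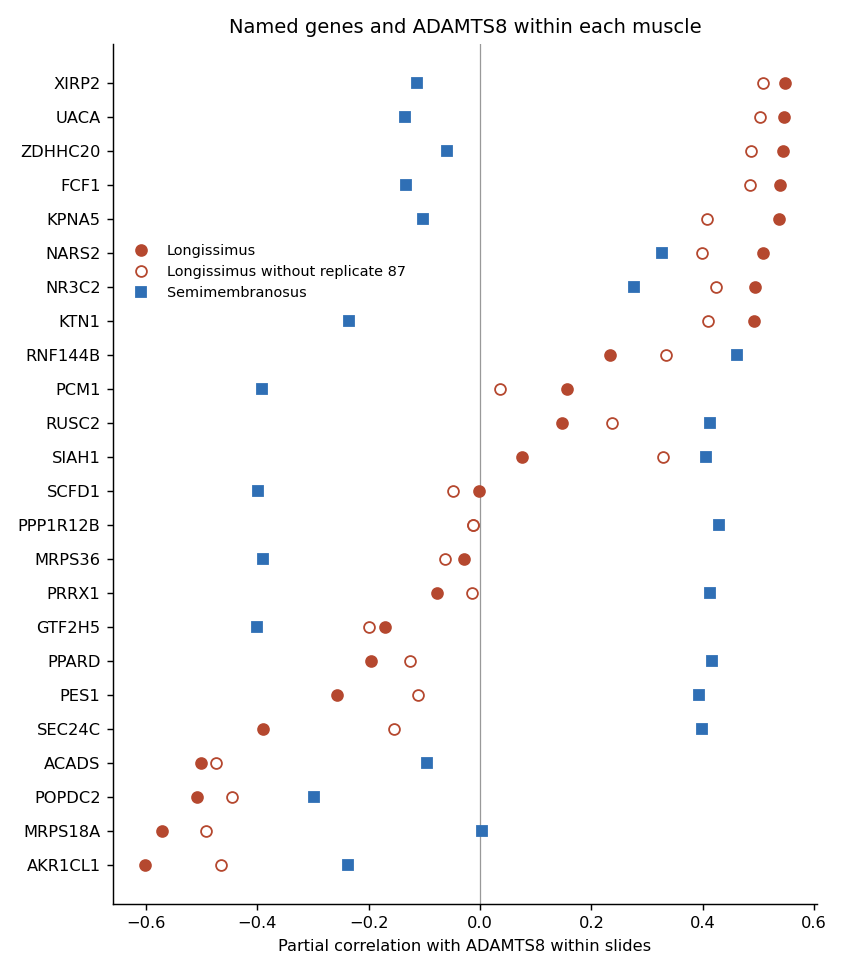
Partial correlation with ADAMTS8 within slides for the named genes of highest and lowest value in either muscle, in LM (filled circles), in LM without replicate 87 (open circles) and in SM (squares), ordered by the LM value; for PPP1R12B the open circle covers the filled one. The 8 genes at the top lay between 0.49 and 0.55 in LM, and XIRP2, UACA, ZDHHC20, FCF1, KPNA5 and KTN1 of them lay below 0 in SM.

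The slope on ADAMTS8 was compared between the muscles in 1 fit over both. It differed for 117 probes (1.06%), with the higher slope in LM for 44 (0.401%) and in SM for 73 (0.664%). Without replicate 87 only 1 probe passed, BQ597595.1_1587, which has no gene name here (slope higher in LM by 0.15, adjusted p = 0.0048, limma), while 1383 had an unadjusted p under 0.05. 

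The other genes of the matrix lists gave no call on the slope. Of the other ADAMTS proteases 2 of 18 listed had a named probe, ADAMTS1 (partial r -0.13 in LM and -0.041 in SM) and ADAMTS9 (-0.23 and -0.0095). The ADAMTS-like proteins ADAMTSL4 (-0.063 and -0.30) and PAPLN (-0.21 and -0.27), the metalloprotease inhibitors TIMP1 (-0.064 and 0.094) and TIMP2 (-0.17 and -0.12), and the convertase PCSK6 (0.26 and 0.040) did not pass in either muscle. Without LM replicate 87 the partial r in LM was -0.38 for ADAMTS1 (adjusted p = 0.069, limma) and 0.094 for PCSK6, and neither passed. With all arrays, the 7 matrix proteoglycans with a named probe did not pass either, with a median partial r of -0.041 in LM and -0.0047 in SM, nor did the 9 genes of angiogenesis ligands, receptors and thrombospondins, with -0.095 and 0.070. Over all probes the median partial r was -0.014 in LM and 0.033 in SM. Of the genes near ADAMTS8 on the chromosome, 3 of the 20 nearest had a named probe, namely APLP2 (0.18 and 0.30), SNX19 (0.14 and 0.17) and VPS26B (0.090 and 0.14), and none passed (lowest adjusted p = 0.17, limma).

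In the muscle difference itself most of these genes went the other way from ADAMTS8. ADAMTS1, ADAMTS9, ADAMTSL4, PAPLN, TIMP1, TIMP2 and PCSK6 were all higher in SM, as were 6 of the 7 proteoglycans and the 9 angiogenesis genes, beside 35.7% of all probes called higher in LM and 47.7% called higher in SM. Gene names were at hand only for probes that the study had listed as different between the muscles of these same pigs, so these counts are no independent evidence.

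The marker lists of cell types other than slow fibres gave no call in either muscle. The 3 endothelial genes with a named probe had a median partial r of -0.19 in LM and 0.050 in SM, and VWF had the lowest value in LM, -0.33 (adjusted p = 0.10, limma). The median was -0.010 and 0.11 for the 6 genes of smooth muscle and pericytes, -0.049 and 0.0018 for the 3 of fibroblasts and tendon, -0.13 and -0.14 for the 5 of adipocytes, and 0.31 and -0.015 for the 3 of macrophages. It was 0.024 and 0.024 for the 1 gene of red blood cells, -0.043 and 0.20 for the 3 of nerve and Schwann cells, and -0.0096 and 0.091 for the 2 of fast fibres. MYL1, a fast fibre myosin light chain that is not in that list, rose in LM (partial r 0.39, adjusted p = 0.040, limma), and without replicate 87 it had 0.22 (adjusted p = 0.39, limma). The list of satellite cells had no named probe. Immediate early genes (median -0.061 and 0.11, 3 genes), heat shock proteins (0.068 and 0.25, 3 genes) and glucocorticoid response genes (-0.17 and 0.040, 4 genes) gave no call either.

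Slow fibre genes gave calls in LM. Of 5 measured members, TNNI1 (partial r = 0.40, adjusted p = 0.031) and MYL2, the slow regulatory myosin light chain (0.39, adjusted p = 0.038, limma for both), rose with ADAMTS8, as 1.12% of all probes did, and the median of the 5 was 0.31. The calcium pump ATP2A2 had 0.31 and myoglobin, MB, 0.27, which did not pass, and calsequestrin CASQ2 had -0.020. Without replicate 87, 0 of the 5 passed, at 0.36 for TNNI1 (adjusted p = 0.091) and 0.34 for MYL2 (adjusted p = 0.13, limma), while the median was 0.34. In SM the median was 0.030 and none passed. Their part in the relation of ADAMTS8 to other genes was not tested.

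A pair of lists was drawn up after the LM values were seen, so their counts describe and test nothing. Of 12 genes of fatty acid uptake and oxidation, all had a negative partial r in LM (median -0.33), and 5 passed, where 1.16% of all probes fell: ACADS, ACADVL (-0.47), the fatty acid transporter CD36 (-0.45), the lipase PNPLA2 (-0.41) and ACADM (-0.41). Without replicate 87 only ACADS passed, and the median was -0.25 with all 12 still below 0 by the probe that represents each gene. A second probe of ETFB, a gene of this list, had 0.21 without that array. In SM the median of the 12 was -0.0098. Of 10 genes of the sarcomere and of membrane excitation, XIRP2, ANO5 (0.49), MYBPC1 (0.42), KCNJ11, MYL1 (0.39) and the calcium channel subunit CACNA2D1 (0.38) rose in LM, as 1.12% of all probes did, and without replicate 87 only XIRP2 and MYBPC1 did. All 3 MYBPC1 probes, for the slow type of myosin-binding protein C, passed (partial r 0.38 to 0.43), whereas 1 of the 3 CACNA2D1 probes had a partial r of 0.014.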

How the data were processed

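Gene expression was measured in 180 muscle samples (90 LM, 90 SM) on a custom pig array of 60-base probes, with 1 slide number for each array in the labels. The deposited scanner files hold the processed signal as a linear intensity, which the authors obtained with Agilent Feature Extraction 9.5.1.1 (44 LM arrays) or 9.5.3.1 (all others) by background subtraction, with no normalization between arrays. A second table deposited by the authors holds natural log values centred within each array, and was used as an alternative. Depth does not apply to arrays, and the number of usable spots limits the precision.

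Signals were put on the log2 scale. A spot failed if it was saturated, non-uniform or not clearly brighter than its background (2.73% of values in the probes kept). Probes with over 50% failed spots in either muscle were removed, each array was centred on its median, failed spots were set to missing, 7460 outlying values (further than 3 SD from the probe mean) were deleted, and 10987 probes remained.

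Linear models were fitted over all probes with limma 3.58.1 in R 4.3.3 (statmod 1.5.0 for random blocks), with Benjamini-Hochberg adjustment and a threshold of 0.05. Slides were tested with 3 or more arrays. Correlations over pigs and arrays used 100000 two-sided permutations in Python 3.11.15 with SciPy, NumPy, pandas and matplotlib. The muscle difference, the slide test in LM, the slope in LM, the difference of slopes and the permutation test were tested on simulated data. Samples were grouped by the muscle in their titles, and the replicate number pairs the muscles because the labels give both the same pig. The replicate block left the count of listed probes that differed between the muscles at 26. These probes had names because the study had listed them as different, so that count was largely fixed in advance.

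Gene names came from supplementary tables that list probes called different between the muscles, 1 of them shortened, for 3967 probes. Their columns of fold changes and p-values were not used. Named genes were, in each muscle, the 8 of highest and the 4 of lowest partial correlation among named probes with 60 or more arrays, the 5 with the highest lower value of both muscles, and members of the matrix lists that passed; 1 gene that the rule names is not reported here. A gene with several probes was represented by that with the most usable arrays, then the highest mean. The gene and the lists were chosen with earlier results of these data known. The model terms of the study for sex, slaughter batch and carcass weight were not used, since the labels do not give them.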

Additional observations from a re-analysis of the deposited data

Results flagged for a closer look

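The slope on ADAMTS8 differed between the muscles for 9 of the genes in the rule for names or in the lists (test of the difference in 1 limma fit, adjusted over all probes). Of all probes 1.06% differed. Each of the 9 was picked by its partial r in 1 muscle or from a list made after the LM values were seen. That choice favours a difference of slopes, so the count is no independent evidence. Slopes are in log2 units for each log2 unit of ADAMTS8, and each difference is LM minus SM. The slope was higher in LM for FCF1 by 0.14 (SE 0.033, adjusted p = 0.024, limma), XIRP2 by 0.13 (adjusted p = 0.049), MYL1 by 0.13 (adjusted p = 0.047), PCM1 by 0.12 (adjusted p = 0.032) and ANO5 by 0.11 (adjusted p = 0.028). It was lower in LM for PPARD, with -0.15 (SE 0.037, adjusted p = 0.026, limma), PNPLA2, with -0.13 (adjusted p = 0.026), SEC24C, with -0.086 (adjusted p = 0.0095), and PES1, with -0.065 (adjusted p = 0.025).

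Without the LM array of replicate 87 none of the 9 passed, with adjusted p from 0.098 for FCF1 to 0.27 for MYL1 (limma). The direction was kept in all 9, and the difference was then 0.14 for FCF1, 0.14 for XIRP2 and 0.097 for MYL1, and -0.13 for PPARD, -0.090 for PNPLA2 and -0.061 for SEC24C. That array had 77.7% of its probes well above background and resembled LM at a correlation of 0.66 with the muscle difference.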

How the results depend on the processing

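The LM minus SM difference of ADAMTS8 lay between 3.50 and 3.94 under every normalization and block tried, and was 3.76 with the pig as a replicate block. Of the listed matrix probes 26 differed between the muscles under each of them. Over all probes 35.7% were called higher in LM and 47.7% higher in SM. The listed probes had names because the study had called them different in these same pigs. Their count was therefore largely fixed in advance and is no evidence of stability. The paired fit of the slopes, with the pig as a random replicate block, called 109 probes against 117. The count of probes that follow ADAMTS8 in LM, 250, was 98 with normexp background correction, 512 without removal of outlying values, 11 in the deposited table, 504 without a slide term and 86 on the rank of ADAMTS8. Leaving out each LM array in turn gave 71 (replicate 87) to 374. In SM the count of 0 was 2 with failed spots kept and 1 in the deposited table. The 117 differences of slopes became 47 with centring on the 75th percentile, 7 with normexp, 46 with failed spots kept, 189 without removal of outlying values, 34 without slides, 1 without LM replicate 87 and 0 in the deposited table. The cause of these changes was not tested. Slides accounted for 34.2% of the LM variance in the deposited table (adjusted p = 0.035, limma), where they passed. In the scanner values, scan days as the grouping accounted for 23.4%, which passed. The correlation between the muscles was -0.27 with values centred on slides, against -0.16. Among 363 values of partial r for the named genes under an alternative, 328 stayed on their side of the threshold, 33 no longer passed, 2 passed newly and 0 changed sign. The 328 include values that did not pass in the main setting and so could not be lost, which overstates stability. Of the 33, 12 were in the deposited table, where XIRP2 still passed (0.47, adjusted p = 0.041, limma). Scan days, software versions, ordinary least squares and the arrays left out were chosen after seeing the data. In SM 1 ADAMTS8 spot, that of replicate 77, was not well above background and had no usable value.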
